A study of Mus musculus with 5 samples.

Results

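The proteasome genes of 4T1 cancer cells growing in the mouse lung were examined one by one. Genes were taken by symbol, from every one that begins with Psma, Psmb, Psmc, Psmd, Psme, Psmf or Psmg, and the interferon-induced catalytic subunits Psmb8, Psmb9 and Psmb10 were set apart. This gave 46 of the 23771 genes measured. The rule used names and no measured value. A UMI (a counted mRNA molecule) was present in 10% or more of the cancer cells from at least 1 library for 45 members, and Psma8, a core subunit of the testis, had none in any cell.

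The study asked whether a lung primed by a distant breast tumor changes the cancer cells that settle in it. Female BALB/c mice received intravenous tumor-secreted factors (TSF, medium conditioned by pieces of mouse breast tumors) or control medium (CM), 3 times per week for 3 weeks. Every mouse was then given 25000 CD90.1-expressing 4T1 cells, a mouse mammary carcinoma line, by vein, and lungs were dissociated at day 16, when the mice were 11 weeks old. Each library pooled 3 lungs, and gene values were analysed for the cancer cells of 1 CM library and 1 TSF library. With 1 library per treatment no difference has a replicate check, no test was made, and the spread between mice is unknown.

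The CM library held 29 cancer cells with a median of 27679 UMIs, and the TSF library held 139 with a median of 26615. At these depths a mean of 1 CP10k (1 UMI per 10000 UMIs of a cell) stands for about 72.7 UMIs summed over the CM cells and 394 over the TSF cells. Of the CM cells 27.6% had under 10000 UMIs, beside 10.1% of the TSF cells, and the median mitochondrial share was 1.72% (CM) and 1.99% (TSF). No cell barcode was shared between the cancer cells of the libraries. Of the epithelial keratins, Krt8 was seen in 29 of 29 CM and 137 of 139 TSF cells and Krt18 in 28 and 138, Krt7 in 18 and 85, and Krt19 in 9 and 53, whereas the reporter CD90.1 was seen in 2 CM and 48 TSF cells and Epcam in 8 CM and 95 TSF cells. Of 13 leukocyte markers, 11 were at 0 in the CM cells, among them Ptprc and Lyz2, and 3 in the TSF cells, with Ptprc in 4 cells. Their summed level of 21.5 CP10k (CM) and 5.39 CP10k (TSF) was almost all Cd74 in CM, an MHC class II chaperone that interferon gamma also induces in carcinoma cells. In TSF Cd74 was 4.23 CP10k, and the neutrophil genes S100a9 (0.685 CP10k, 4 cells) and S100a8 (0.300 CP10k, 2 cells), both at 0 in CM, made up most of the rest. Of 9 markers of lung epithelium, endothelium and stroma, 6 were at 0 in the CM cells and 4 in the TSF cells, and their sums were 0.171 (CM) and 0.261 CP10k (TSF). The part of other cell types in the values below was not tested.

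The proteasome is the protease that removes most short-lived and damaged proteins marked by ubiquitin. Its 20S core is a barrel of outer alpha rings, which gate the entry, and inner beta rings, which hold the catalytic sites of Psmb5 (chymotrypsin-like), Psmb6 (caspase-like) and Psmb7 (trypsin-like). The 19S cap binds ubiquitinated proteins, removes the ubiquitin and unfolds them with a ring of ATPases, and PA28 is another activator, built of Psme1 and Psme2. Interferon gamma induces PA28 and the subunits Psmb8, Psmb9 and Psmb10, which replace Psmb5, Psmb6 and Psmb7 to form the immunoproteasome, known for making peptides for MHC class I. Cells that run short of proteasome activity raise the subunit genes together through the transcription factor NRF1 (Nfe2l1), which binds the antioxidant response element.

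Promoter windows from RefSeq on GRCm38.p6, 250 bases before to 50 bases after each gene start, were found for 38 of the 46 members. The members without one were Psma8, Psmb1, Psmb2, Psmb7, Psmc3, Psmd3, Psmd7 and Psmg2. The core of the antioxidant response element, TGACNNNGC on either strand, was held by 6 of the 38 members (15.8%) and by 14% of the 27025 genes with a window. The interferon-stimulated response element core, GAAA followed by any 2 bases and a second GAAA, was held by 5 members (13.2%) and 3.99% of genes. The gamma-activated site, TTCNNNGAA, was held by 2 members (5.26%, Psmd2 and Psmg1) and 9.55% of genes. Both strands were searched, each core is shorter than the full motif, and a match is a description of the sequence.

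The 250 bases before the start of Psmb5, the member with the largest difference upward, are shown with the antioxidant response element core in capitals (chr14:54617996-54618245, minus strand).
Psmb5: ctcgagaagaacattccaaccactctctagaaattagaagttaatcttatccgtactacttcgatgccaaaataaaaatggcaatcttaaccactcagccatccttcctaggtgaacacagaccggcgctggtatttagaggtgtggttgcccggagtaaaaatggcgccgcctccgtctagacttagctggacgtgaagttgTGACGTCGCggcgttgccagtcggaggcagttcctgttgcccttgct

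For comparison across roles, the other members with that core are shown by the site alone, 5′ to 3′ on the strand of the gene, with up to 10 bases on either side. They are the catalytic subunit Psmb6 (chr11:70525338-70525366, plus strand), the cap ATPase Psmc6, the lid subunit Psmd12, the base chaperone Psmd9 and the activator Psme4.
Psmb6: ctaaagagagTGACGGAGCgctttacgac
Psmc6: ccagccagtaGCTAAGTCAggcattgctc
Psmd12: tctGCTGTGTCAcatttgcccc
Psmd9: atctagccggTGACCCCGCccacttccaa
Psme4: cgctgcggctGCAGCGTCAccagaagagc

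The interferon-stimulated element core is shown likewise for Psme1, the PA28 member that holds one, and for Psmb3, Psmd4, Psmd9 and Psmg4. In Psme1 (site chr14:55578493-55578522) it lies 10 bases after the RefSeq start and on the other strand. That start lies inside the gene as GENCODE draws it, whose coordinates are given with the values below. Neither window listed for Psme2 held any of the 3 cores.
Psme1: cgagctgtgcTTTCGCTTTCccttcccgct
Psmb3: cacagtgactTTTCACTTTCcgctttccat
Psmd4: ataaccaaccTTTCCATTTCtgtggcgcct
Psmd9: gggacagaatGAAAAAGAAAggaatgaaca
Psmg4: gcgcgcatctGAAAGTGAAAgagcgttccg

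Differences between the libraries are given as the plain ratio of mean CP10k, TSF over CM, and as a log2 difference of mean CP10k plus a pseudocount of 1, which understates changes of low genes. Paired values are always given with TSF first and CM after it. Over the 45 members, 19 were higher and 26 lower in the TSF library, beside 40.3% higher and 59.7% lower of all 10201 genes that passed the same filter. On the pseudocount scale 1 member was at least 25% higher (3.14% of all genes were) and 4 were at least 20% lower (8.89% of members, and 7.66% of all genes). Taken whole, these shares were near those of all genes at this filter. Of the 42 members seen in at least 50% of cells of either library, 1 was at least 25% higher and 4 at least 20% lower. Of all genes seen in that many cells, 6.5% and 14.6% were, so these members were called less often. Summed over the members the level was 85.7 (TSF) and 91.8 CP10k (CM). Separated by role, most core subunits were higher in the TSF library, and most cap subunits and both PA28 genes were lower. The plot of each gene's level in the libraries shows this.

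**Figure D1:**
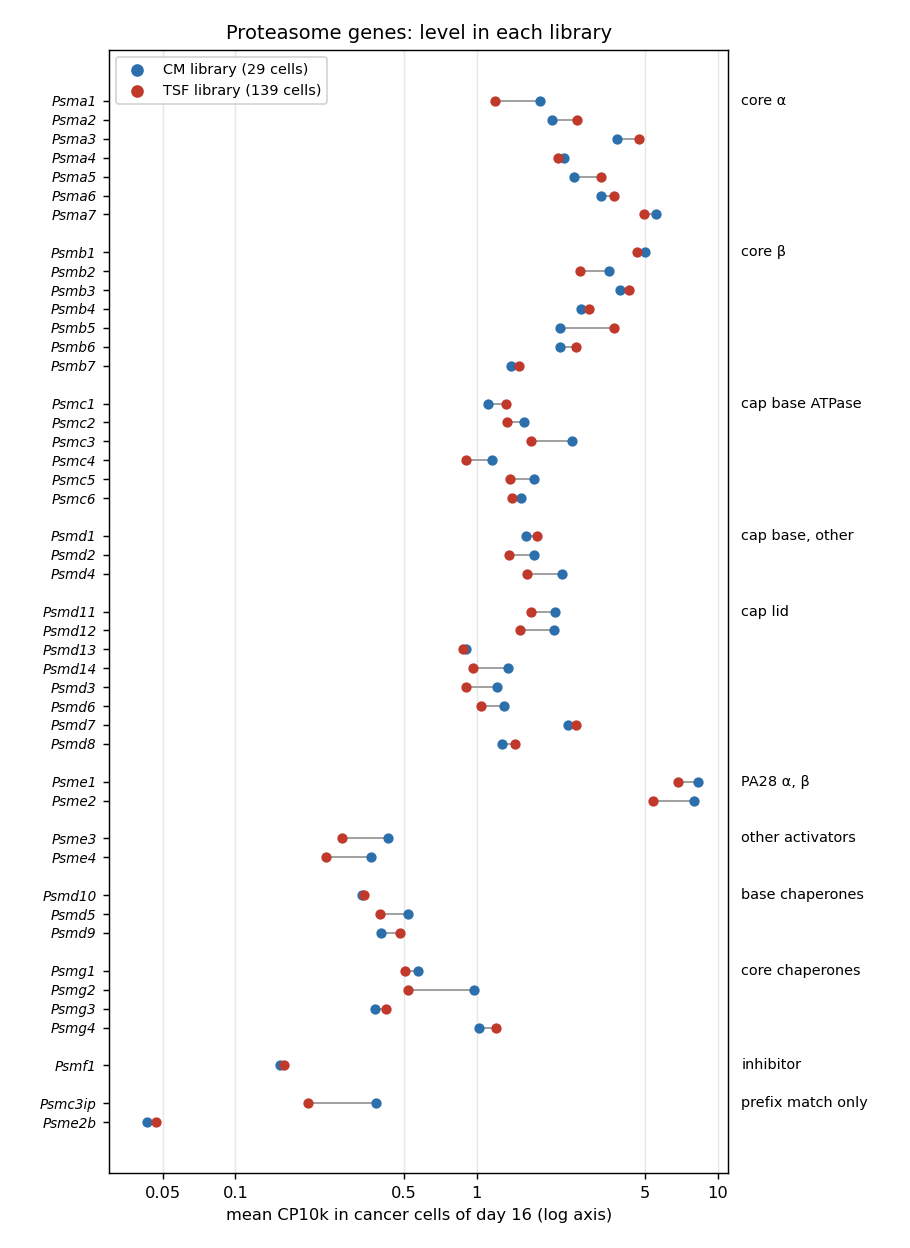
Mean CP10k (log axis) of the 45 detected proteasome genes in the cancer cells of the CM library (blue, 29 cells) and the TSF library (red, 139 cells), grouped by role, 1 point per library. Psmb5 is at 2.21 CP10k in CM and 3.70 in TSF, most cap subunits have the red point on the left, and both PA28 genes do.

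The core came first. Of its 14 subunits, 9 were higher and 5 lower in the TSF library, with a median ratio of 1.08 and a median log2 difference of 0.09. The background for these abundant genes is 38.7% higher, the share among 4555 genes seen in at least 50% of cells of either library, whose median ratio was 0.884. The summed level of the core was 44.9 (TSF) and 42.3 CP10k (CM), a ratio of 1.06. On the pseudocount scale 1 core subunit, Psmb5, was at least 25% higher (6.5% of those abundant genes were) and 1, Psma1, at least 20% lower (14.6%).

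In the alpha ring, 4 subunits were higher and 3 lower. Psma5 had 3.27 (TSF) and 2.52 CP10k (CM), the highest ratio of the ring at 1.30 (log2 difference 0.28). Psma2 had 2.61 and 2.06 CP10k, and Psma3 had 4.71 and 3.82 CP10k. Psma6 was also higher, with 3.71 and 3.27 CP10k. In the other direction, Psma1 had 1.19 (TSF) and 1.83 CP10k (CM), a ratio of 0.649, which made it the core subunit with the lowest value (log2 difference -0.37) and the only one of them at least 20% lower. Psma7 had 4.94 and 5.51 CP10k and Psma4 had 2.18 and 2.31. The direction of Psma4 turned when ribosomal protein genes were left out of the totals (log2 difference 0.0093), beside a ratio of 0.943 with them. The ring thus held genes on both sides.

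In the beta ring, 5 subunits were higher and 2 lower, and all 3 constitutive catalytic subunits were among the higher. Psmb5 (ENSMUSG00000022193, chr14:54614119-54618022, minus strand, GRCm38) had 3.70 (TSF) and 2.21 CP10k (CM). Its ratio of 1.67 (log2 difference 0.55) was the largest of all members and the only one at least 25% higher on the pseudocount scale. It was seen in 135 of 139 TSF cells (97.1%, exact 95% interval 92.8 to 99.2%) and in 24 of 29 CM cells (82.8%, interval 64.2 to 94.2%). The intervals overlap, and they cover counting error only. Psmb6 had 2.58 and 2.21 CP10k (ratio 1.17), and Psmb7 had 1.49 and 1.39 CP10k (ratio 1.08), a smaller difference than that of Psmb5. Among the structural beta subunits Psmb3 had 4.27 and 3.92 CP10k and Psmb4 had 2.91 and 2.70. Psmb2 was the lowest of the ring, with 2.68 (TSF) and 3.54 CP10k (CM) (ratio 0.758, log2 difference -0.30), and Psmb1 had 4.61 and 4.98 CP10k. GENCODE lists processed pseudogenes of Psmb5, Psmb6 and Psmb7, with which reads could be shared.

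The cap lay lower in the TSF library. Of its 17 subunits, 13 were lower (76.5%) and 4 higher, beside 61.3% lower among all genes seen in at least 50% of cells. The median ratio was 0.800 and the median log2 difference -0.18, beside 0.884 and -0.07 for those genes. The summed level was 23.7 (TSF) and 27.8 CP10k (CM), a ratio of 0.855. By share of cells with a UMI, 11 cap subunits were lower and 6 higher. By that measure 49.1% of all genes seen in at least 10% of cells of either library were higher.

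Of the 6 ATPases that unfold substrates, 5 were lower. Psmc3 had 1.68 (TSF) and 2.48 CP10k (CM), a ratio of 0.678, the lowest of the cap (log2 difference -0.38, the only cap subunit at least 20% lower on the pseudocount scale). That is 5.88% of the 17 cap subunits, beside 14.6% of all genes seen in at least 50% of cells. Psmc4 (0.901 and 1.16 CP10k), Psmc5 (1.37 and 1.73), Psmc2 (1.33 and 1.58) and Psmc6 (1.40 and 1.52) had ratios from 0.779 to 0.916. Psmc1 was the exception, with 1.32 and 1.12 CP10k and a ratio of 1.18. The ATPase ring thus held 1 gene on the other side.

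Among the other base subunits, the ubiquitin receptor Psmd4 had 1.61 (TSF) and 2.26 CP10k (CM), a ratio of 0.714. It was seen in 92.8% of TSF cells and 96.6% of CM cells, and the exact intervals of these shares overlap (87.2 to 96.5% and 82.2 to 99.9%). The large scaffold subunits went apart, with Psmd2 at 1.37 and 1.73 CP10k (ratio 0.792) and Psmd1 at 1.77 and 1.60 CP10k (ratio 1.11). In the lid, 6 of 8 subunits were lower. Psmd14, the deubiquitinase that cuts ubiquitin off the substrate, had 0.964 (TSF) and 1.34 CP10k (CM) (ratio 0.717). Its transcript was found in 83.5% of the TSF cells, with an interval of 76.2 to 89.2%, beside 86.2% in CM, with 68.3 to 96.1%. Psmd12 had the lowest log2 difference of the lid, -0.29, with 1.52 and 2.08 CP10k. Psmd3 (0.902 and 1.21 CP10k), Psmd11 (1.68 and 2.10) and Psmd6 (1.04 and 1.30) lay in the same direction. Psmd13 had 0.874 and 0.905 CP10k, and its sign turned when ribosomal protein genes were left out of the totals (log2 difference 0.03). Psmd8 was the highest of the lid at 1.44 and 1.27 CP10k (log2 difference 0.10), and Psmd7, the inactive partner of Psmd14, had 2.57 and 2.38 CP10k.

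A scaling common to all genes of a library cancels in the quotient of core and cap. A difference that goes with transcript length does not cancel, and the median length was 1120 bases in the core and 1591 in the cap. The core's summed CP10k was 1.89 times the cap's in the TSF library and 1.52 times in the CM library, so the quotient was 1.24 times higher in the TSF library. Without Psmb5 it was 1.73 and 1.44, 1.20 times higher. The size of a quotient reflects how well each mRNA is captured, and only its change between libraries is read here.

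**Figure D2:**
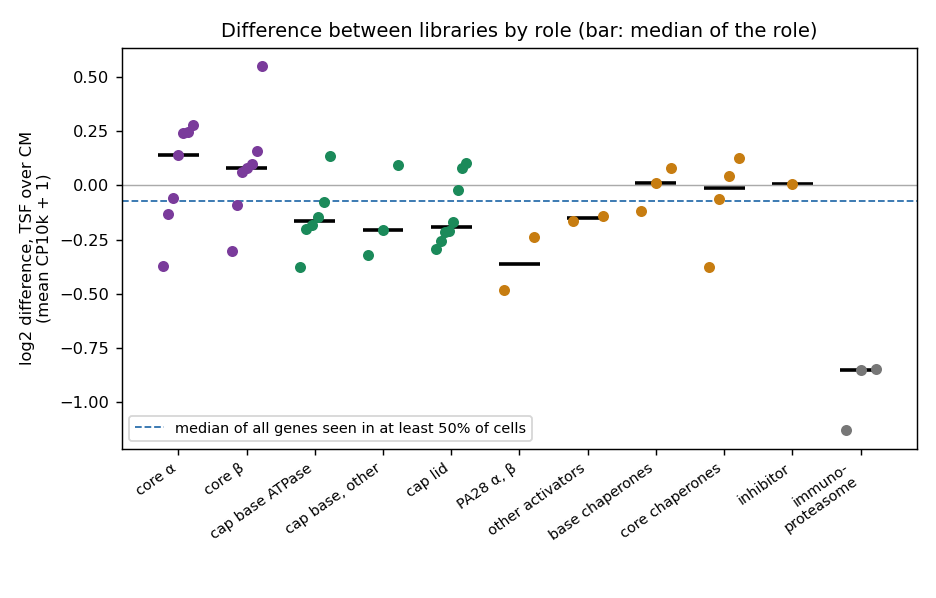
Log2 difference of mean CP10k plus 1, TSF library over CM library, for each detected gene by role; points are genes, black bars the median of a role, and the dashed line the median of all genes seen in at least 50% of cells (-0.07). Core medians lie above the dashed line, cap and PA28 medians below it, and the 3 immunoproteasome subunits lowest of all.

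Transcript length moved with these differences. Over all genes seen in at least 50% of cells, the 1139 with the shortest transcripts (up to 1388 bases) had a median ratio of 1.11, with 60.6% higher and 39.4% lower in the TSF library. Of the 3414 longer genes 31.4% were higher and 68.6% lower, and their median ratio was 0.822. The core holds 11 short genes, of which 7 were higher with a median ratio of 1.08, close to the 1.11 of all short genes. Its 3 longer members, Psma2, Psma3 and Psmb1, had ratios of 1.27, 1.24 and 0.926. The cap has 5 short genes, Psmc4, Psmc5, Psmd4, Psmd6 and Psmd13, and 0 of these 5 were higher, with a median ratio of 0.793. Its 12 longer genes had a median ratio of 0.822, the same as that of all longer genes. On the pseudocount scale the median log2 difference of those 12 was lower, -0.17 beside -0.11 for all longer genes. Within the core and cap the rank correlation of difference with length was weak (Spearman's rho -0.18 over 31 genes, a description only). Ribosomal protein genes, which are short, made up 23.9% of the summed level in TSF and 18.6% in CM. The part of length and of the ribosomal share in the proteasome values was not tested beyond these numbers and the alternatives of the closing part.

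**Figure D3:**
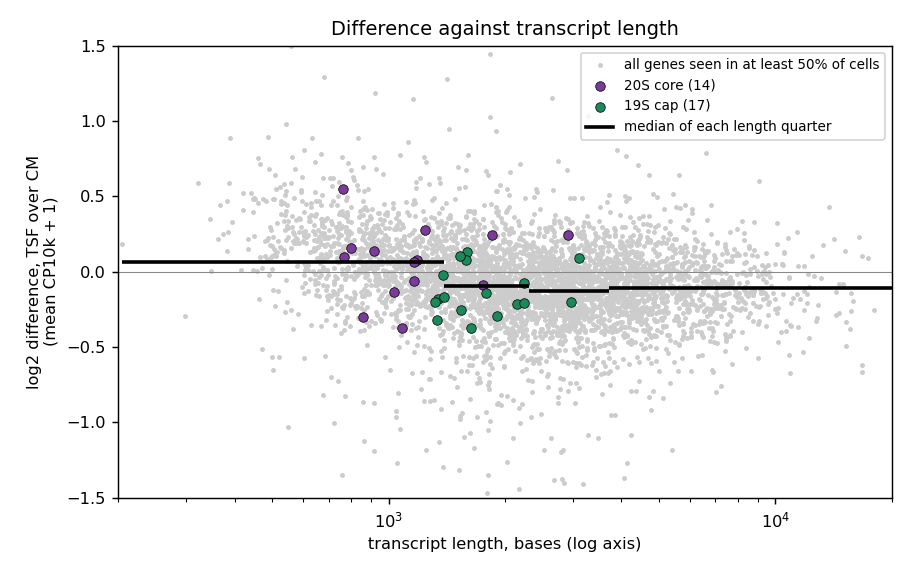
Log2 difference of mean CP10k plus 1, TSF over CM, against the median length of a gene's GENCODE transcripts in bases (log axis); gray points are the 4553 genes with a length that were seen in at least 50% of cells (24 of them lie outside the axes), violet points the 14 core and green points the 17 cap subunits, and black lines the median of each of 4 length classes of equal size. Short genes lie higher than long ones, core genes sit mostly among the short, and the 5 short cap genes lie below 0.

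PA28 was lower in the TSF library. Psme1 (ENSMUSG00000022216, chr14:55578123-55581529, plus strand) had 6.86 (TSF) and 8.27 CP10k (CM), a ratio of 0.830 (log2 difference -0.24). Psme2 (ENSMUSG00000079197, chr14:55587441-55591113, minus strand), its neighbor on the chromosome and partner in the ring, had 5.40 and 7.94 CP10k, a ratio of 0.679 (log2 difference -0.48), the lowest log2 difference of all members. Both were seen in all 29 CM cells (interval 88.1 to 100%) and in 137 (98.6%) and 135 (97.1%) of the 139 TSF cells. Nearly every cancer cell of both libraries thus held PA28 transcripts. Psme2b, a gene similar to Psme2, with which its reads could be shared, was seen in 19 TSF and 4 CM cells.

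The interferon-induced catalytic subunits had lower ratios than either PA28 gene. Psmb8 had 5.20 (TSF) and 10.2 CP10k (CM) (ratio 0.512), Psmb9 had 1.37 and 4.18 (ratio 0.327), and Psmb10 had 2.67 and 5.61 (ratio 0.475). Set against the constitutive subunit each of them replaces, the quotient of Psmb5 over Psmb8 was 3.27 times higher in the TSF library, that of Psmb6 over Psmb9 3.58 times and that of Psmb7 over Psmb10 2.27 times. The summed level of Psmb5, Psmb6 and Psmb7 was 0.842 times that of the interferon-induced trio in the TSF library and 0.291 times in the CM library. A list of 14 genes that interferon gamma induces includes Psmb8, Psmb9 and Psmb10. All 14 were lower in the TSF library (59.7% of all genes were), and 13 were at least 20% lower (7.66% of all genes). Their median ratio was 0.268. Irf1, an interferon-induced transcription factor of that list, had 1.39 and 6.64 CP10k. The ratios of Psme1 and Psme2 were thus nearer to 1 than that median. Relative to the core, summed PA28 was 0.273 (TSF) and 0.384 (CM), 0.712 times as high in the TSF library. Relative to the cap, which was itself lower in the TSF library, it was 0.516 and 0.584, 0.884 times as high.

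**Figure D4:**
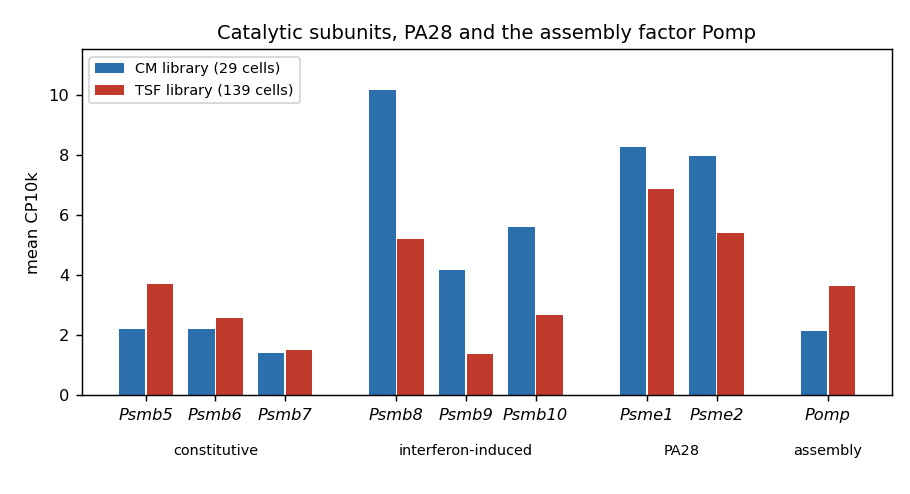
Mean CP10k in the CM library (blue, 29 cells) and the TSF library (red, 139 cells) for the constitutive catalytic subunits, their interferon-induced replacements, PA28 and the assembly factor Pomp; bars start at 0 and have no error bars, since each is 1 library. Among the constitutive subunits Psmb5 is higher in the TSF library (3.70 against 2.21), and Psmb6 (2.58 against 2.21) and Psmb7 (1.49 against 1.39) are higher by less. The replacements are lower (Psmb8 5.20 against 10.2).

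The remaining activators were low and seen in fewer cells. Psme3, the nuclear PA28 gamma, had 0.277 (TSF) and 0.429 CP10k (CM) (ratio 0.645), and was seen in 40.3% and 51.7% of cells. Psme4, the nuclear activator PA200, had 0.238 and 0.365 CP10k (ratio 0.653), and was seen in 45.3% of TSF cells (36.9 to 54.0%) and 58.6% in CM (38.9 to 76.5%). All 4 activator genes were thus lower in the TSF library, as were 59.7% of all genes, whose median ratio was 0.873. Psmf1, an inhibitor of the core, was level between the libraries, with 0.160 and 0.153 CP10k and a UMI in 34.5% of cells of each.

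Dedicated chaperones build the particle. Of these 7 members 4 were higher and 3 lower in the TSF library, beside 40.3% higher of all genes that passed the 10% filter. For the core, Psmg1 and Psmg2 form a pair that starts the alpha ring. Psmg2 had 0.518 (TSF) and 0.970 CP10k (CM), a ratio of 0.534 (log2 difference -0.38), lower than any structural subunit by ratio. Psmg1 had 0.503 and 0.572 CP10k, and was seen in 64.0% of TSF cells but 48.3% of CM cells, so level and share of cells pointed in opposite directions. The other pair was higher, with Psmg4 at 1.20 and 1.02 CP10k (log2 difference 0.13) and Psmg3 at 0.423 and 0.381. Of the chaperones of the base, Psmd9 had 0.480 and 0.402 CP10k, Psmd10 0.342 and 0.334, and Psmd5 0.398 and 0.519 (log2 differences 0.08, 0.0085 and -0.12). All 7 were at or below 1.02 CP10k in the CM library, where 1 CP10k stands for about 72.7 UMIs in all.

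Shares of cells with a UMI were compared next. Of the 45 members, 20 had a higher share in the TSF library and 25 a lower one, beside 49.1% higher of all genes. The exact intervals of the libraries overlapped for all 45 members, and they did not overlap for 2.65% of all genes. Overlap of intervals is not a test of a difference, and Wilson intervals did not overlap for Psmb5. Every core subunit was seen in at least 85.6% of TSF cells and 82.8% of CM cells, and every cap subunit in at least 74.1% and 75.9%. A single CM cell is 3.45% of the CM cells. Shares could not be compared at equal depth or set beside a cell type without the proteasome, since every cell type has one. For Psma8, 0 of 139 TSF and 0 of 29 CM cells had a UMI, which by a floor of 3 counts allows a share of cells with a UMI of up to 2.16% and 10.3%, and limits no share of cells that express it.

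A pair of genes matched the symbol rule but are not subunits. Psmc3ip, a factor of meiotic recombination, had 0.200 (TSF) and 0.382 CP10k (CM). Psme2b had 0.0470 and 0.0431 CP10k. Neither was at least 20% lower or 25% higher on the pseudocount scale.

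Of 24 partner genes measured, from a list by role, 16 were lower (66.7%, beside 59.7% of all genes) and 8 higher in the TSF library. At least 25% higher was only Pomp, the maturation factor that seats the beta ring of the core. It had 3.64 (TSF) and 2.15 CP10k (CM), a ratio of 1.70, beside the 1.67 of the subunit Psmb5. The cap subunits outside the symbol rule divided, with Sem1 at 7.09 and 6.26 CP10k and the ubiquitin receptor Adrm1 at 1.04 and 1.30. At least 20% lower were 6 partners (25% of them, beside 7.66% of all genes), among them 2 in the delivery of substrates (Rad23b and Ubqln1), the ubiquitin gene Ubb, the scaffold Ecpas and the transcription factor Nfe2l2. Nfe2l1, the regulator of proteasome genes, had 1.20 and 1.36 CP10k (ratio 0.880), close to the median ratio of 0.884 of all genes seen in at least 50% of cells. Its activator Ddi2 had 0.178 and 0.162 CP10k. The 6 members with an antioxidant response element core lay on both sides, 3 higher (Psmb5, Psmb6 and Psmd9) and 3 lower (Psmc6, Psmd12 and Psme4).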

How the data were processed

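Cancer cells of 2 libraries of day 16 were analysed, 1 per group. The authors mapped 5′ 10x Genomics reads in Cell Ranger to a GRCm38.p6 reference that also held CD90.1, corrected ambient RNA with a modified SoupX, and annotated cells by hand. Clusters of mixed markers were removed as multiplets, checked with scDblFinder scores; none were removed among the cancer cells, and no doublet caller was run here. Seurat 4.1.0 is named in the submitters' processing notes. The authors deposited, per gene, the mean CP10k of each library, and how many cells, and what percent, had a UMI; the deposited cell table gives UMI counts, gene numbers and mitochondrial percent per cell after quality filters. The deposited log2 fold changes, p-values, ranking scores and enrichment scores are the authors' own comparison and were not used. The cell table also holds the 3 libraries of day 11 and 2 further libraries, which are not used here. No count model was possible without counts per gene, and no test was made. Some measured genes are not reported here.

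From these values the ratio and the log2 difference with a pseudocount of 1 CP10k were computed, for genes with a UMI in at least 10% of cells of either library (10201 genes). A gene was counted as at least 25% higher or 20% lower past a fold of 1.25 on that scale. Intervals of shares are exact Clopper-Pearson at 95%, for counting error only. Transcript length is the median over GENCODE M21 basic transcripts. Scripts were tested on simulated data. Computation was in Python 3.11.15 with scipy 1.17.1, pandas 2.3.3 and numpy 2.4.6, and figures were drawn with matplotlib 3.10.9.

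Named genes were Psme1, Psme2, Psmb5 to Psmb7, Psmd14, Psmd4, every member past the fold and the highest and lowest of each role. Others are named with values as members of their role. The members, lists and rules were chosen with earlier results of these data known. Alternatives were other pseudocounts, totals, filters, centring, the share of cells in place of the mean, a fold of 1.5 and Wilson intervals.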

Additional observations from a re-analysis of the deposited data

How the results depend on the processing

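The direction of core and cap did not turn under any alternative run. Core subunits higher in the TSF library numbered 9 or 10 of 14, and cap subunits lower numbered 11 to 13 of 17, over totals, centring and the share of cells. The other pseudocounts and filters could not change these counts. A pseudocount keeps the sign of a difference, and every core and cap subunit passed each filter. What moved was size. The median log2 difference of the core, 0.09 as reported, was 0.17 without ribosomal protein genes in the totals and 0.18 with mitochondrially encoded genes left out as well. With a pseudocount of 0.1 the median log2 difference of the cap was -0.31, that of Psme1 -0.27 and that of Psme2 -0.55, with 3 members at least 25% higher and 13 at least 20% lower. With none these were -0.32, -0.27, -0.56, 3 and 17, because low genes are less damped. Without ribosomal protein genes in the totals 4 members were at least 25% higher, and Psme1 was at -0.16 and Psme2 at -0.41, and with mitochondrially encoded genes left out as well the values were 4, -0.15 and -0.41. Centred on the median of all genes Psme1 was at -0.21 and Psme2 at -0.45. At a fold of 1.5 on the pseudocount scale 0 members were counted as higher and 0 as lower. Wilson intervals of the shares of cells did not overlap for 1 member, Psmb5 (92.8 to 98.9% in TSF, 65.5 to 92.4% in CM). Centring within deciles of transcript length was added after the data were seen, and gave -0.29 for Psme1, -0.54 for Psme2, and 9 core subunits higher and 13 cap subunits lower. No paired analysis was possible because each group had 1 library, and for the same reason no replicate could be left out. The 29 CM cells limit every value, and no error of a mean CP10k can be given without the single-cell matrix.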

Other observations

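Ubiquitin is the tag that the proteasome reads. Ubb, which encodes a chain of ubiquitin and is known to respond to stress, had 23.1 (TSF) and 30.7 CP10k (CM), a ratio of 0.753. The enzyme that activates ubiquitin, Uba1, had 0.901 and 1.00 CP10k. Of 10 immediate-early and dissociation genes, 9 passed the filter. All 9 were lower in the TSF library (59.7% of all genes were), 7 of them by at least 20% (7.66% of all genes). The list summed to 51.0 CP10k (TSF) and 122 CP10k (CM). Of that list, the heat shock gene Hspa1b had 0.932 and 4.02 CP10k. The part of that response in the proteasome values and in that of Ubb was not tested.

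Among proteins that feed substrates to the cap, 6 of 8 were lower in the TSF library, with a median ratio of 0.736. Of all genes seen in at least 10% of cells of either library, 59.7% were lower, with a median ratio of 0.873. Among longer genes seen in at least 50% of cells the values were 68.6% and 0.822, but Nploc4, Ubqln2 and Ubqln4 were seen in fewer cells. The median transcript length of these 8 was 3337 bases. The unfolding ATPase Vcp had 2.46 and 3.32 CP10k, and the shuttles Rad23b and Ubqln1 had 0.933 against 1.47 and 0.376 against 0.788. Ubqln2 had the lowest ratio of the 8, 0.254, at 0.0463 and 0.182 CP10k. It was seen in 12.2% of TSF and 41.4% of CM cells, and the exact intervals did not overlap, as for 2.65% of all genes. The cofactor Nploc4, at 0.177 and 0.159 CP10k, and Ubqln4, at 0.164 and 0.146, were the 2 that were higher.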
